A study of Arabidopsis thaliana with 48 samples.

Results

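HYH, a gene of light signalling, and the loci AT3G52740 and AT3G44450 were followed across light and dark in Arabidopsis thaliana, each by 1 probe set of the Affymetrix ATH1 array. They were set by their probe set identifiers, chosen with earlier results of these data known, and they are 3 of the 22746 probe sets tested. RNA came from pooled whole seedlings on medium with 3% sucrose, kept for 3 days in short days and then, from dawn of day 4, in cycles of 160 min light and 320 min dark. The 48 arrays fall into 9 groups. The double mutant pif4 pil5, lacking the bHLH factors PIF4 and PIL5, was sampled in the dark at minute 280 of the day (6 arrays) and is labelled as not growing there. CCA1OX, which overexpresses the clock gene CCA1, and the wild-type accession Col each had 4 groups: light at minute 120 (5 arrays), dark at minute 280 (6 arrays), light at minute 1080 (5 arrays) and dark at minute 1240 (5 arrays). The labels call CCA1OX growing at both dark times, Col growing at dark 280 only, and every light group not growing. They name neither the mutant alleles nor the promoter that drives CCA1, and CCA1, PIF4 and PIL5 are not named in the annotation used and were not analysed here, so both lines are taken as labelled.

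Replicates 1 to 3 of a Col or CCA1OX group are days 4, 5 and 6 of a first time course, and the later numbers belong to a second. Each time course of these lines was hybridised in its own campaign of 24 arrays, the 6 pif4 pil5 arrays all in the second. The data of 3 arrays stood apart from their labels, and the differences that rest on them are also given from the other 45. A score made from 320 probe sets lower and 155 higher in the dark in the second campaign, without HYH, AT3G52740 and AT3G44450, ranked the first campaign's arrays by how dark they looked. The arrays labelled CCA1OX dark 280 replicate 2 and Col dark 280 replicate 3 scored -1.29 to -1.14, inside the range of the other light arrays (-1.50 to -0.29), while the other dark arrays scored 0.15 to 1.93. The array labelled Col light 1080 replicate 3 scored 1.22, inside the dark range. Because these arrays were set aside for going against their light or dark label, dark minus light differences, p-values and separation on 45 arrays are in part fixed by that choice, and are given as descriptions beside the test on 48. The same holds on 45 arrays for differences between lines that use the groups of these arrays. Of the marker genes listed for leaf, root and seed, only RCA (Rubisco activase) and PYK10 (a root beta-glucosidase) have a named probe set: RCA averaged 12.28 to 12.60 over the 9 groups and PYK10 11.57 to 12.12 on the log2 scale. The seed genes listed are not named there.

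Plants read light through phytochromes and cryptochromes. In darkness the COP1 and SPA ubiquitin ligase removes transcription factors that promote light growth, and in light these factors build up and switch on genes for pigments and leaf development. HYH, a bZIP transcription factor, is the close homolog of HY5, the best known of these factors. PIF4 and PIL5 work on the other side: they build up in the dark, favour hypocotyl elongation and are removed when phytochrome is activated. AT3G52740 and AT3G44450 are protein-coding loci with no symbol in the reference table, and no role is given to them here, where they are followed as listed companions of HYH.

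All 3 transcripts averaged lower in the dark than in the light in CCA1OX and Col. In CCA1OX at the later cycle, HYH was 8.20-fold lower in the dark, AT3G52740 5.26-fold lower and AT3G44450 3.84-fold lower, and in each case every dark array lay below every light array. The same direction held at both cycles and in both lines, with mean differences of -1.25 to -3.04 on the log2 scale. On the full set of 48 arrays, 7 of these 12 differences passed the limma test at an adjusted p of 0.05, where 0.0703% to 2.36% of all probe sets were called lower in the 4 comparisons. On 45 arrays all 12 passed, where 1.56% to 3.35% were. Values below are RMA expression on the log2 scale, and differences are dark minus light unless stated.

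**Figure D1:**
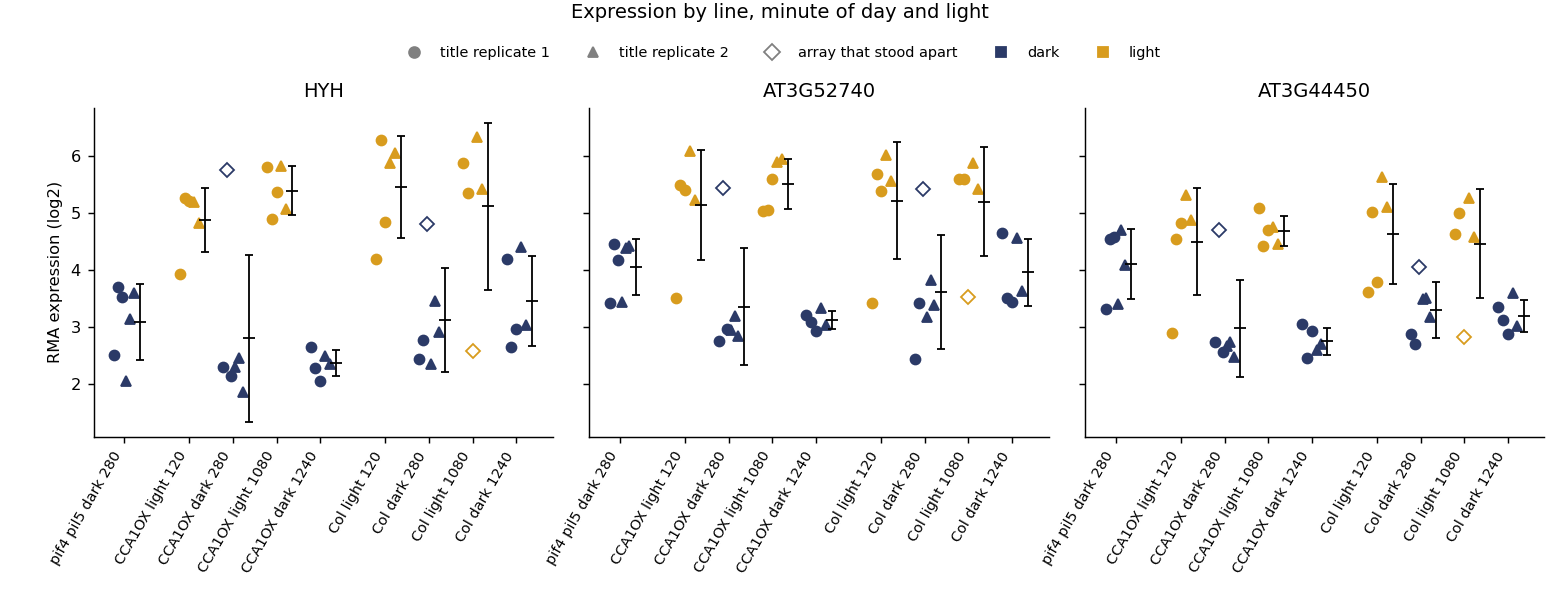
Expression of HYH, AT3G52740 and AT3G44450 (y axis, RMA log2) in the 9 groups (x axis: line, light or dark, minute of day). Points are arrays, with circles and triangles for replicate numbers 1 and 2 of the sample titles and open diamonds for the 3 arrays that stood apart; bars are the mean ± SD over all arrays of the group. Most dark arrays (blue) sit low and most light arrays (orange) high in both lines, and the open diamonds sit on the opposite side. Some other light 120 arrays also lie at dark levels, such as CCA1OX replicate 1 at 2.89 for AT3G44450 and Col replicate 1 at 3.42 for AT3G52740.

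In CCA1OX at the later cycle, HYH read 2.65, 2.28, 2.04, 2.48 and 2.34 at dark 1240, against 5.81, 4.89, 5.37, 5.84 and 5.08 at light 1080. The highest dark array, at 2.65, lay far below the lowest light array, at 4.89. The difference was -3.04 ± 0.57 (SE, adjusted p = 0.00103). AT3G52740 read 3.21, 3.09, 2.92, 3.33 and 3.03 at dark 1240, against 5.04, 5.06, 5.60, 5.91 and 5.94 at light 1080, a difference of -2.39 ± 0.49 (adjusted p = 0.00239). AT3G44450 read 3.06, 2.45, 2.92, 2.60 and 2.70 at dark 1240, against 5.08, 4.43, 4.71, 4.76 and 4.45 at light 1080, a difference of -1.94 ± 0.41 (adjusted p = 0.00338). All 3 loci fell here, where 2.36% of all probe sets were called lower, and their groups did not overlap, which held in that direction for 4.62% of all probe sets. No array of these groups stood apart, and on 45 arrays, where 3.35% were called lower, the estimates were the same and all 3 were called.

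At the earlier cycle of CCA1OX, all 3 also fell, with 1 dark array at a light level. HYH read 2.29, 5.76, 2.13, 2.29, 2.46 and 1.86 at dark 280 (2.80 ± 1.46, SD, n = 6), against 3.93, 5.26, 5.22, 5.20 and 4.82 at light 120 (4.89 ± 0.56, n = 5). The second value is the dark array that stood apart, which was above every light array of this comparison. AT3G52740 read 2.76, 5.44, 2.96, 2.95, 3.20 and 2.84 at dark 280, against 3.51, 5.49, 5.40, 6.09 and 5.23 at light 120. AT3G44450 read 2.73, 4.71, 2.55, 2.67, 2.74 and 2.48 at dark 280, against 2.89, 4.55, 4.83, 5.33 and 4.88 at light 120. In each gene the day 4 light array of the first time course was also the lowest light array. The differences were -2.09 ± 0.54 for HYH (adjusted p = 0.0387), -1.79 ± 0.47 for AT3G52740 (adjusted p = 0.0409) and -1.51 ± 0.40 for AT3G44450 (adjusted p = 0.0396), where 0.818% of all probe sets were called lower.

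These 3 calls at the earlier CCA1OX cycle were close to the threshold. Each was lost without any 1 of 9 of the 11 arrays compared, the exceptions being CCA1OX dark 280 replicate 2 and CCA1OX light 120 replicate 1. Over the 11 arrays left out in turn, HYH lay between -2.68 and -1.90 with an adjusted p of up to 0.134, AT3G52740 between -2.20 and -1.55 (up to 0.134) and AT3G44450 between -1.92 and -1.31 (up to 0.131). On 45 arrays the differences were -2.68 for HYH (adjusted p = 1.82e-06), -2.20 for AT3G52740 (adjusted p = 6.89e-05) and -1.86 for AT3G44450 (adjusted p = 0.000163), where 3.04% of all probe sets were called lower. The groups of all 3 loci then did not overlap, as for 3.20% of all probe sets.

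In Col the differences had the same direction, and fewer passed the test. At dark 280, HYH read 2.44, 2.76, 4.82, 2.34, 3.46 and 2.92, against 4.19, 6.29, 4.85, 5.88 and 6.06 at light 120. The third dark value is the Col array that stood apart, and it lay just under 1 light array and above another. HYH fell by 2.33 ± 0.54 (adjusted p = 0.0212), the only one of the 3 loci called here, where 0.422% of all probe sets were called lower. The call was lost without Col dark 280 replicate 1 (-2.20, adjusted p = 0.0597) or 6 (-2.29, 0.0504) and without Col light 120 replicate 2 (-2.12, 0.0923), 4 (-2.23, 0.0501) or 5 (-2.18, 0.0766).

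AT3G52740 read 2.44, 3.42, 5.42, 3.17, 3.83 and 3.38 at dark 280 of Col, against 3.42, 5.69, 5.38, 6.03 and 5.57 at light 120, a difference of -1.61 ± 0.47 (adjusted p = 0.0838). Its highest dark and its lowest light array each lay among the other group. AT3G44450 read 2.87, 2.70, 4.06, 3.48, 3.51 and 3.18 at dark 280, against 3.61, 5.02, 3.79, 5.63 and 5.11 at light 120, a difference of -1.33 ± 0.40 (adjusted p = 0.0895). Each of these differences passed without Col dark 280 replicate 3 (AT3G52740 -1.97, adjusted p = 0.00999; AT3G44450 -1.48, adjusted p = 0.0362) or without Col light 120 replicate 1 (-2.06, 0.0169; -1.59, 0.0409). On 45 arrays all 3 loci fell, at -2.67 for HYH (adjusted p = 3.4e-06), -1.97 for AT3G52740 (adjusted p = 0.000501) and -1.48 for AT3G44450 (adjusted p = 0.00374), where 2.37% of all probe sets were called lower. The groups of HYH and AT3G44450 then did not overlap, as for 1.59% of all probe sets, and those of AT3G52740 did.

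The later cycle of Col gave no call among the 3 loci on 48 arrays, where 0.0703% of all probe sets were called lower. HYH read 4.20, 2.65, 2.97, 4.40 and 3.03 at dark 1240, against 5.89, 5.35, 2.58, 6.35 and 5.43 at light 1080, a difference of -1.67 ± 0.57 (95% interval -2.81 to -0.53, adjusted p = 0.48). The light array at 2.58, which stood apart, was below every dark array. AT3G52740 read 4.65, 3.51, 3.45, 4.56 and 3.63 at dark 1240, against 5.61, 5.59, 3.52, 5.88 and 5.42 at light 1080, a difference of -1.25 ± 0.49 (-2.24 to -0.25, adjusted p = 0.602). AT3G44450 read 3.35, 3.12, 2.88, 3.60 and 3.02 at dark 1240, against 4.64, 5.00, 2.82, 5.27 and 4.57 at light 1080, a difference of -1.27 ± 0.41 (-2.10 to -0.43, adjusted p = 0.449). The intervals of all 3 differences lay below 0, while the adjustment runs over all probe sets of a comparison with few calls. Without Col light 1080 replicate 3, HYH passed at -2.30 (adjusted p = 0.0217) and AT3G44450 at -1.68 (adjusted p = 0.0267), and AT3G52740 was -1.67. On 45 arrays the adjusted p was 0.000147 for HYH, 0.00963 for AT3G52740 and 0.00345 for AT3G44450, where 1.56% of all probe sets were called lower. The groups of all 3 loci then did not overlap, as for 2.61% of all probe sets. HYH was called lower in 3 of the 4 dark minus light comparisons on 48 arrays, as were 0.167% of all probe sets.

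**Figure D2:**
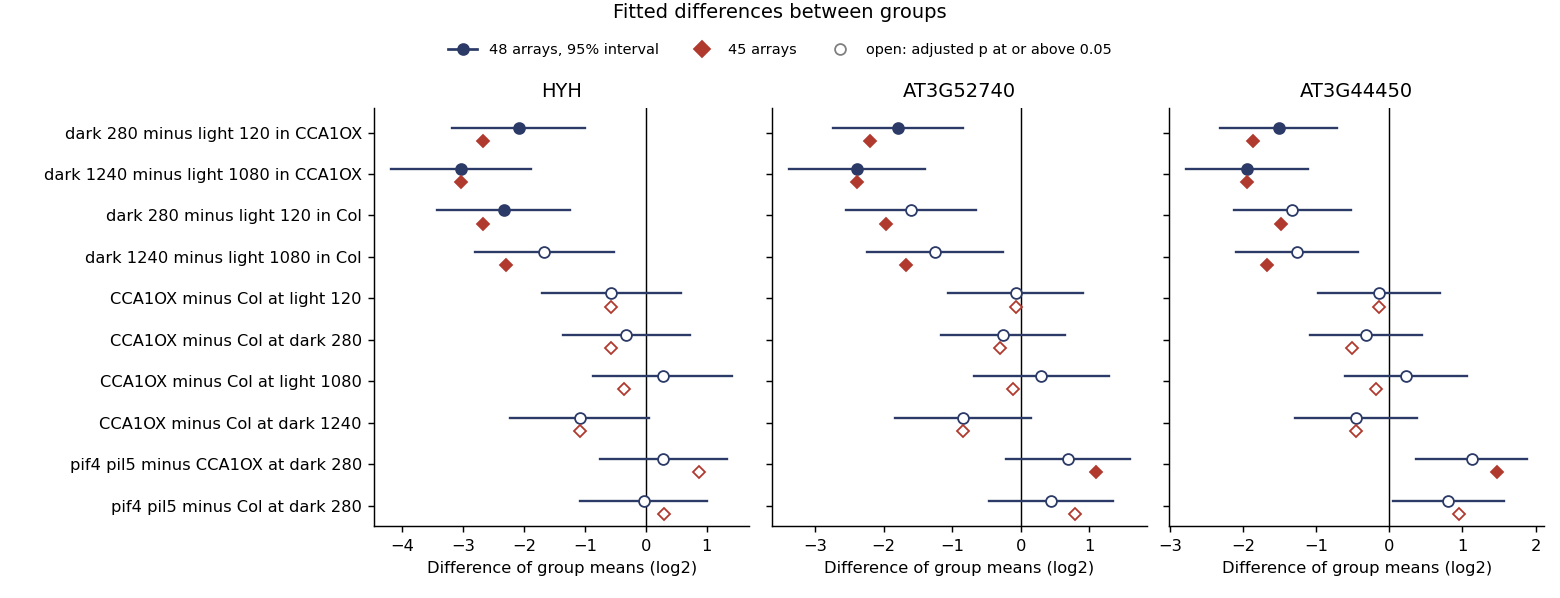
Fitted differences between group means (x axis, log2) for HYH, AT3G52740 and AT3G44450, with the comparisons named on the y axis. Circles with bars are 48 arrays with the 95% interval, diamonds are 45 arrays, and open symbols did not pass the adjusted p of 0.05. The 4 dark minus light differences lie below 0 in all 3 panels, between -1.25 and -3.04 on 48 arrays.

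Dark and light samples of a line can be paired by time course and day, and each of these 18 pairs lies in 1 array batch. HYH was lower in the dark in 16 of 18 pairs, with a median difference of -2.61. AT3G52740 was lower in 17 of 18 (median -1.90) and AT3G44450 in 15 of 18 (median -1.84). The pairs that were not lower each held an array that stood apart. The other 15 pairs lack the arrays set aside for going against their label, so their direction is in part fixed by that choice. In them all 3 loci were lower in the dark in 15 of 15, as were 2.86% of all probe sets. The differences lay between -3.54 and -1.64 for HYH, between -3.14 and -0.76 for AT3G52740 and between -2.66 and -0.16 for AT3G44450. The smallest of these differences came, for all 3 loci, from the earlier cycle of day 4 in the first time course of CCA1OX, a pair of array batch 1, where AT3G44450 read 2.73 in the dark and 2.89 in the light. In the second time course the same day and cycle of CCA1OX gave -2.66 for AT3G44450 and -3.14 for AT3G52740, the largest differences of both loci.

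**Figure D3:**
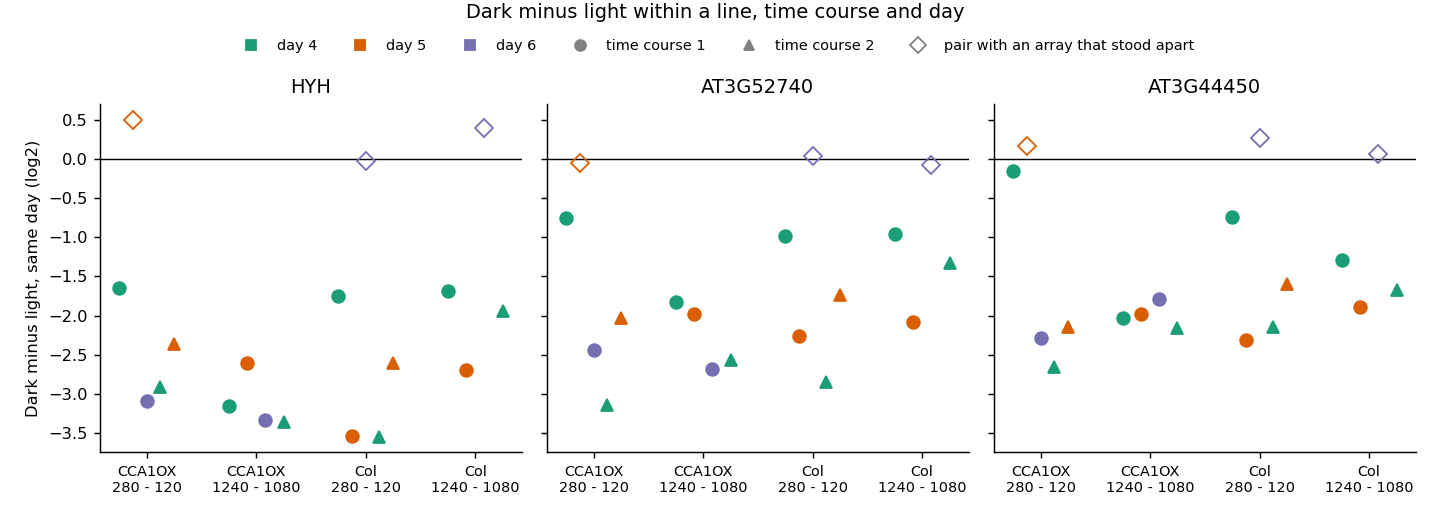
Dark minus light (y axis, log2) for each pair of arrays of the same line, time course and day, by line and cycle (x axis: line and the minutes of day compared). Colour is the day, circles are time course 1 and triangles time course 2, and open diamonds are the 3 pairs with an array that stood apart. All filled points lie below 0, with AT3G44450 in CCA1OX closest to it at -0.16.

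No light level differed by a called amount between cycles. HYH averaged 4.89 to 5.46 over the 4 light groups, AT3G52740 5.14 to 5.51 and AT3G44450 4.46 to 4.68. Later light minus earlier light was 0.51 for HYH, 0.37 for AT3G52740 and 0.19 for AT3G44450 in CCA1OX, and -0.34, -0.01 and -0.17 in Col, none of them called, where 0% of all probe sets were called in CCA1OX and 0.0659% in Col. In CCA1OX the 95% intervals ran from -0.63 to 1.65 for HYH, from -0.63 to 1.36 for AT3G52740 and from -0.64 to 1.02 for AT3G44450. In Col that of HYH ran from -1.48 to 0.81, and the upper bounds of AT3G52740 and AT3G44450 were 0.98 and 0.67. From 45 arrays, the Col values were 0.30, 0.41 and 0.24. Dark 1240 minus dark 280 was also called for none of the 3 loci in either line (0% of all probe sets in CCA1OX, 0.101% in Col), with differences between -0.44 and 0.35. On 45 arrays these were 0.15 for HYH, 0.17 for AT3G52740 and 0.11 for AT3G44450 in CCA1OX, and 0.67, 0.71 and 0.05 in Col. None was called there, where 0% of all probe sets were in CCA1OX and 0.237% in Col. The dark minus light difference at the later cycle against that at the earlier cycle was -0.95 for HYH, -0.61 for AT3G52740 and -0.43 for AT3G44450 in CCA1OX, and 0.66, 0.36 and 0.06 in Col. No probe set passed this test in either line (0% of all probe sets in each). On 45 arrays it was -0.36, -0.19 and -0.08 in CCA1OX, and 0.37, 0.30 and -0.20 in Col.

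CCA1OX and Col did not differ by a called amount at any of the 4 times. CCA1OX minus Col lay between -0.57 and -0.07 at light 120 (0.246% of all probe sets called), between -0.32 and -0.25 at dark 280 (0.123%) and between 0.22 and 0.30 at light 1080 (0.154%). On 45 arrays the values at light 1080 were negative, -0.36 for HYH, -0.12 for AT3G52740 and -0.19 for AT3G44450 (0.299% of all probe sets called). Those at dark 280 were -0.58, -0.31 and -0.51 (0.189%), and none of the 3 loci was called at either time. On 48 arrays the widest gap of each locus was at dark 1240, and on 45 arrays that of AT3G44450 was at dark 280. Dark 1240 is the time at which CCA1OX is labelled growing and Col not, and there HYH was -1.09 ± 0.57 (95% interval -2.23 to 0.05, adjusted p = 0.745), AT3G52740 -0.84 ± 0.49 (-1.84 to 0.15, adjusted p = 0.818) and AT3G44450 -0.45 ± 0.41 (-1.28 to 0.38, adjusted p = 0.926), where 0.62% of all probe sets were called. All 5 CCA1OX arrays of AT3G52740, at 2.92 to 3.33, lay below all 5 Col arrays, at 3.45 to 4.65, as for 0.747% of all probe sets in that direction. HYH overlapped at a single value, with CCA1OX at 2.04 to 2.65 and Col at 2.65 to 4.40, and AT3G44450 overlapped more widely, with CCA1OX at 2.45 to 3.06 and Col at 2.88 to 3.60.

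The fall itself was tested between the lines. The fall in CCA1OX minus that in Col at the earlier cycle was 0.25 for HYH, -0.18 for AT3G52740 and -0.18 for AT3G44450. At the later cycle it was -1.37 for HYH (95% interval -2.98 to 0.25), -1.15 for AT3G52740 (-2.55 to 0.26) and -0.67 for AT3G44450 (-1.85 to 0.51). None was called, and limma called 0% of all probe sets at either cycle. Without Col light 1080 replicate 3 the later values were -0.73 for HYH, -0.73 for AT3G52740 and -0.26 for AT3G44450, the same as on 45 arrays. On 45 arrays the earlier values were -0.01, -0.23 and -0.38, and none of the 3 loci was called at either cycle. Over the 6 comparisons with no call at all, 303 to 700 passed 0.05 before adjustment of p.

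The day 4 samples stood out within Col at dark 1240, a pattern noticed after the values were seen and given without a test. HYH read 2.65, 2.97 and 3.03 on days 5 and 6, against 4.20 and 4.40 on day 4 of the 2 time courses. AT3G52740 read 3.51, 3.45 and 3.63 on the later days, against 4.65 and 4.56 on day 4, and AT3G44450 3.12, 2.88 and 3.02, against 3.35 and 3.60 on day 4. In all 3 loci the later arrays all lay below both day 4 arrays, and the 2 day 4 arrays came from different campaigns and array batches. In CCA1OX at dark 1240, HYH read 2.28, 2.04 and 2.34 on the later days, against 2.65 and 2.48 on day 4, and AT3G52740 3.09, 2.92 and 3.03, against 3.21 and 3.33 on day 4. AT3G44450 read 2.45, 2.92 and 2.70 there on the later days, against 3.06 and 2.60 on day 4, so its days overlapped. In pif4 pil5 at dark 280 the order was the other way round, with HYH at 3.71, 3.52, 3.13 and 3.60 on days 5 and 6, against 2.50 and 2.05 on day 4. AT3G52740 read 4.17 to 4.45 on the later days in the mutant, against 3.43 and 3.44 on day 4. AT3G44450 read 4.10 to 4.71 there, against 3.31 and 3.39 on day 4. Col at dark 280 had this order too for HYH, at 2.76 to 4.82 on the later days, against 2.44 and 2.34 on day 4. The same held there for AT3G52740, at 3.38 to 5.42, against 2.44 and 3.17 on day 4. The upper ends, 4.82 and 5.42, are Col dark 280 replicate 3, which stood apart. Without it the later days reached 3.46 for HYH and 3.83 for AT3G52740, still above day 4. AT3G44450 overlapped between days in Col at dark 280, and all 3 loci did in CCA1OX at dark 280. Over all groups, with day added to the model, day 6 minus day 4 was -0.18 for HYH, 0.15 for AT3G52740 and -0.11 for AT3G44450, none called, where 20.2% of all probe sets were. On 45 arrays these were -0.09, 0.17 and -0.04.

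**Figure D4:**
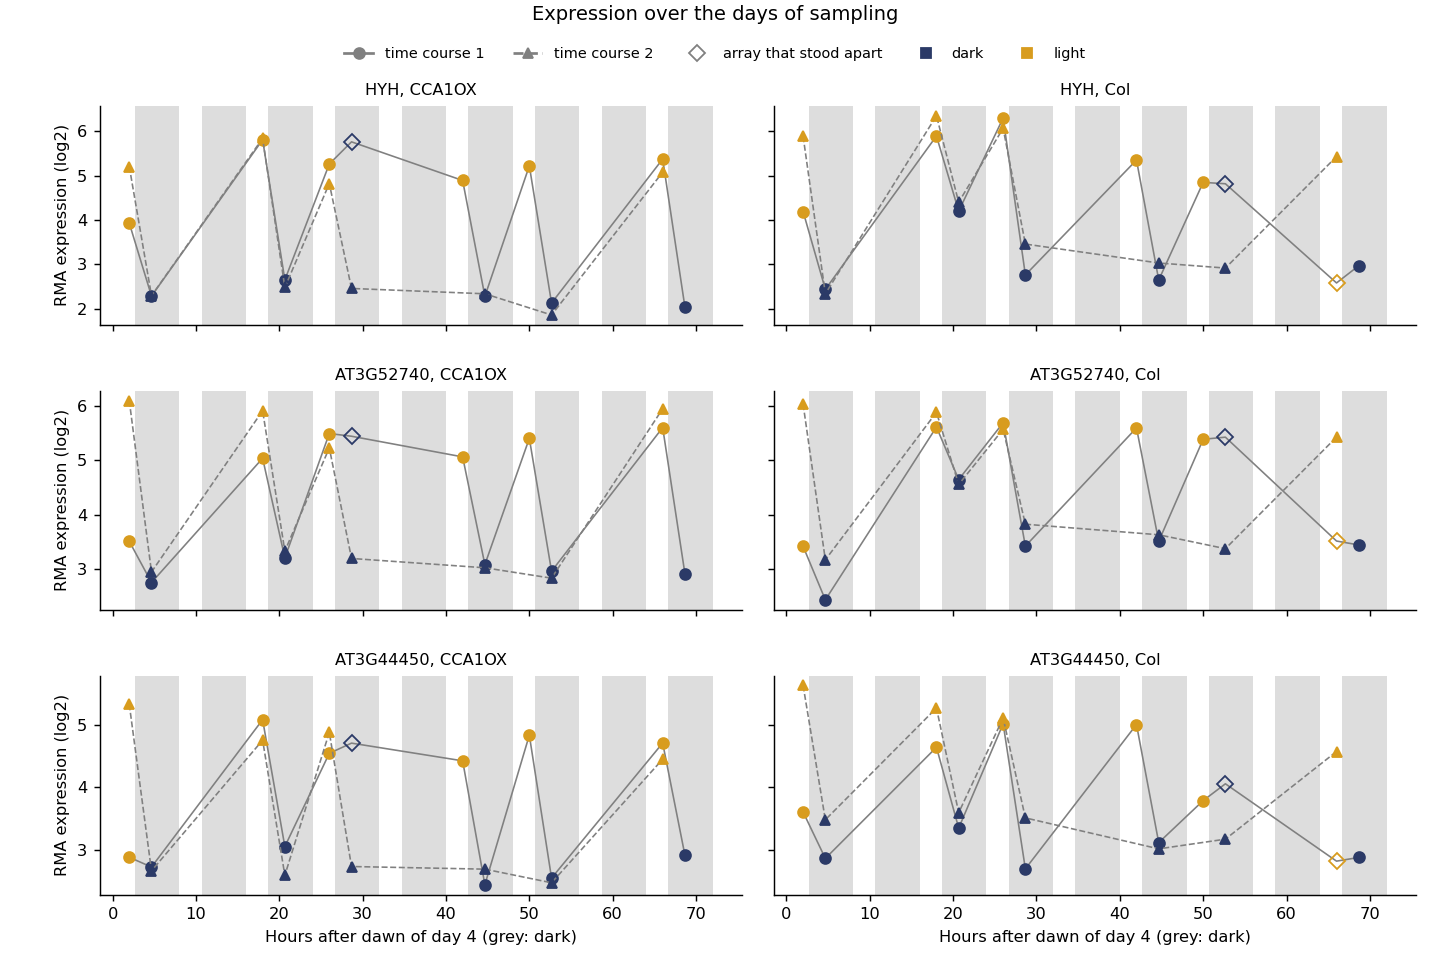
Expression (y axis, RMA log2) of HYH, AT3G52740 and AT3G44450 in CCA1OX (left) and Col (right) against hours after dawn of day 4 (x axis), with grey bands for the dark. Circles with solid lines are time course 1, triangles with dashed lines time course 2, orange is light, blue is dark, and open diamonds are the 3 arrays that stood apart. HYH in Col at dark 1240 is at 2.65 to 3.03 on the later days, against 4.20 and 4.40 on day 4.

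In the pif4 pil5 mutant, sampled in the dark only, HYH was near the dark level of Col, and AT3G44450 had a higher mean than either line. HYH averaged 3.09 ± 0.67 in pif4 pil5 (SD, n = 6), against 2.80 ± 1.46 in CCA1OX and 3.12 ± 0.92 in Col at the same time (n = 6 each). AT3G52740 averaged 4.05 ± 0.49 in pif4 pil5, against 3.36 ± 1.03 in CCA1OX and 3.61 ± 1.00 in Col. AT3G44450 averaged 4.11 ± 0.62 in pif4 pil5, against 2.98 ± 0.85 in CCA1OX and 3.30 ± 0.49 in Col, so that the mutant's dark mean was nearer to the lowest light mean, 4.46 in Col at light 1080, than to either dark mean. Against Col none of the 3 differences was called, with -0.04 for HYH, 0.44 for AT3G52740 and 0.80 for AT3G44450 (95% interval 0.04 to 1.57, adjusted p = 0.317), where 0.607% of all probe sets were. Without Col dark 280 replicate 3, on 45 arrays, they were 0.30 for HYH, 0.80 for AT3G52740 (adjusted p = 0.298) and 0.96 for AT3G44450 (adjusted p = 0.153). None was called there, where 0.809% of all probe sets were.

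Against CCA1OX the differences were 0.29 for HYH, 0.69 for AT3G52740 and 1.13 ± 0.38 for AT3G44450 (adjusted p = 0.0526), just short of the threshold, where 8.68% of all probe sets were called. The first time courses of CCA1OX and pif4 pil5 were hybridised in different campaigns, so a replicate block for time course does not pair their arrays. With that block entered, AT3G44450 passed at 1.13 (adjusted p = 0.0405). It also passed without CCA1OX dark 280 replicate 2 (1.47, adjusted p = 0.0099), without pif4 pil5 replicate 1 (1.28, 0.044) or without pif4 pil5 replicate 4 (1.27, 0.0457), the last 2 being the mutant's day 4 arrays. It did not pass with an array batch block (1.35, adjusted p = 0.0512) or in a fit of CCA1OX and pif4 pil5 at dark 280 alone (adjusted p = 0.0708), and over single arrays left out the adjusted p reached 0.119. On 45 arrays AT3G44450 was 1.47 higher (adjusted p = 0.00255) and AT3G52740 1.11 higher (adjusted p = 0.0434), where 3.18% of all probe sets were called higher. HYH at 0.88 was not called there (adjusted p = 0.103). That set lacks CCA1OX dark 280 replicate 2, an array with a light-like score that read high for all 3 loci. It was set aside with earlier results of these data known, not chosen by the score. Its removal lowers the CCA1OX means, so these values are in part fixed by that choice and are descriptions. On 48 arrays 4.56% were called higher, none of the 3 loci among them. All pif4 pil5 arrays belong to array batch 5, which holds 1 CCA1OX and 1 Col array of dark 280. Within that batch AT3G44450 read 3.31 to 4.71 in pif4 pil5, against 2.48 in CCA1OX and 3.18 in Col, and AT3G52740 read 3.43 to 4.45, against 2.84 in CCA1OX and 3.38 in Col. HYH read 2.05 to 3.71 in pif4 pil5 there, against 1.86 in CCA1OX and 2.92 in Col. The CCA1OX and Col arrays of that batch are of day 6, while the mutant's arrays cover days 4 to 6. On day 6 the mutant's HYH read 3.52 and 3.60, above the Col array. Its day 4 arrays, at 2.50 and 2.05, lay below the Col array. The log2 signal of the GAPDH control at the 3' end over that at the 5' end, a sign of RNA quality, was lowest in pif4 pil5 (0.06 ± 0.25, against 0.45 ± 0.16 in CCA1OX and 0.37 ± 0.29 in Col). The same measure for the actin control was alike, at 2.96 ± 0.15 in pif4 pil5, 2.95 ± 0.28 in CCA1OX and 2.97 ± 0.26 in Col. PYK10 was lowest in pif4 pil5, at 11.57. The part of RNA quality or of the PYK10 level in the mutant's values was not tested. In whole seedlings, fewer cells of a type and less RNA per cell cannot be told apart.

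Ordered by mean on 48 arrays, each locus had 1 step between neighbouring groups that exceeded the SD of both. For HYH it lay between Col dark 1240, the highest dark group at 3.45 ± 0.79, and CCA1OX light 120, the lowest light group at 4.89 ± 0.56. For AT3G52740 it lay between pif4 pil5 dark 280 at 4.05 ± 0.49 and CCA1OX light 120 at 5.14 ± 0.97. For AT3G44450 it lay within the dark groups, between Col dark 280 at 3.30 ± 0.49 and pif4 pil5 dark 280 at 4.11 ± 0.62. The order of the lowest groups depended on the arrays kept. CCA1OX dark 1240 was lowest for all 3 loci on 48 arrays, and on 45 arrays CCA1OX dark 280 was, at 2.21 ± 0.23 for HYH, 2.94 ± 0.17 for AT3G52740 and 2.63 ± 0.11 for AT3G44450. On 45 arrays more dark neighbours were further apart than their SDs. For AT3G52740 these were CCA1OX dark 1240 at 3.12 ± 0.16 against CCA1OX dark 280, and Col dark 1240 at 3.96 ± 0.59 against Col dark 280 at 3.25 ± 0.51. For AT3G44450 CCA1OX dark 1240 at 2.74 ± 0.25 and Col dark 280 at 3.15 ± 0.36 were such neighbours, as were pif4 pil5 dark 280 and Col dark 1240 at 3.19 ± 0.28. HYH kept its 1 step between dark and light.

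The 3 loci moved together across arrays. Over the 9 group means, which differ mainly between light and dark, Pearson's r was 0.98 between HYH and AT3G52740, 0.96 between AT3G52740 and AT3G44450 and 0.91 between HYH and AT3G44450, and 0.99, 0.97 and 0.94 on 45 arrays. After the group means were taken out, the residuals of the 48 arrays still followed each other, with r of 0.89 for HYH and AT3G52740, 0.86 for HYH and AT3G44450 and 0.85 for AT3G52740 and AT3G44450. On 45 arrays the residuals gave 0.79, 0.75 and 0.76. These correlations are descriptions, since the loci were read from the same arrays and share time course, day and batch.

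**Figure D5:**
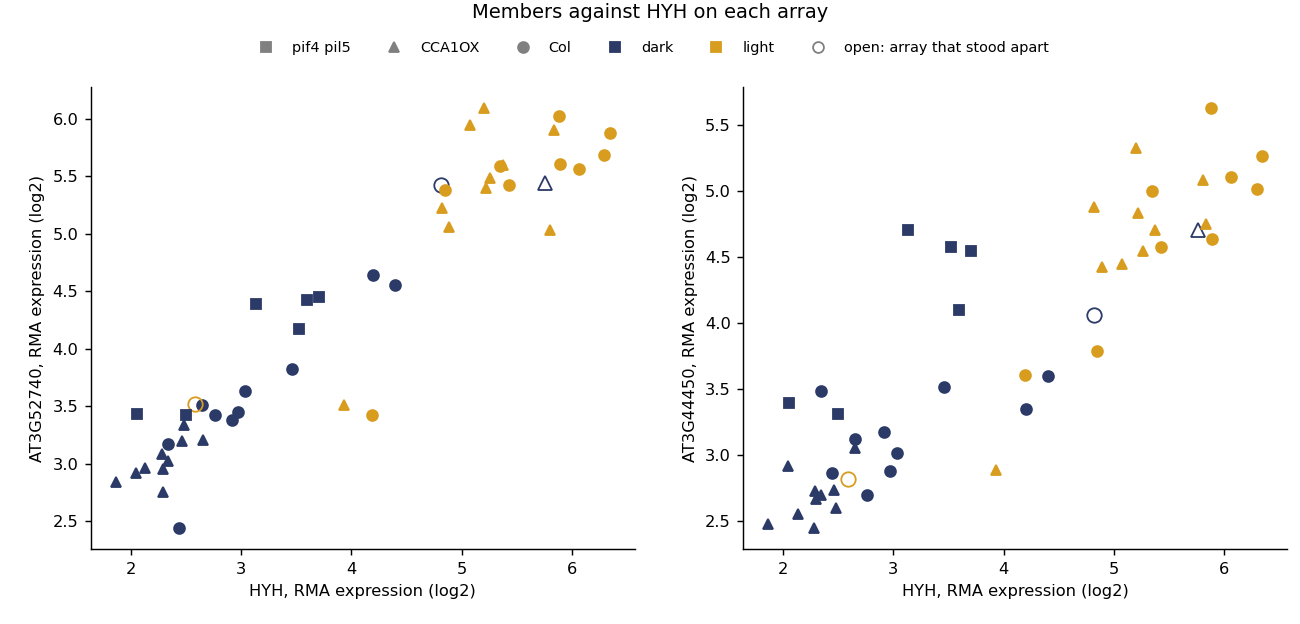
AT3G52740 (left) and AT3G44450 (right) on the y axis against HYH on the x axis, both RMA log2, with 1 point per array. Squares are pif4 pil5, triangles CCA1OX and circles Col, blue is dark and orange light, and open symbols are the 3 arrays that stood apart. In the right panel 4 of the 6 pif4 pil5 arrays sit at 4.10 to 4.71 for AT3G44450, with HYH at 3.13 to 3.71.

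Among 2241 probe sets whose group means spanned at least 1 on the log2 scale, HYH was the 9th most like AT3G52740, and AT3G52740 the 7th most like HYH. AT3G52740 was the 11th most like AT3G44450. The single-gene probe sets most like HYH over the 9 group means were GSTU16, a glutathione transferase (r = 0.98), AT3G52740, GTR1, AT1G65870 and AT5G35970, the last also the most alike of all to AT3G52740 (r = 0.99). AT4G24700, AT4G11570, AT1G23205 and AOR followed for AT3G52740. AT3G44450 was most like AT1G06000 (r = 0.96), AT2G20560, the glucosyltransferase gene UGT74D1, AT3G52740 and the glucosyltransferase gene UGT76E11. With 9 points that share the light and dark contrast, high values are common in this measure: HYH and AT3G44450, at 0.91, ranked only 193rd and 83rd for each other.

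Of a list of 62 genes, made of light-signalling genes with AT3G52740 and AT3G44450, 9 had a named probe set: HYH, AT3G52740, AT3G44450, FHL, CHIL, UGT78D2, PORB, IAA29 and HAT2. The other listed photoreceptors, COP1 and SPA genes and light transcription factors, HY5 among them, are not named in the annotation and were not analysed here. In CCA1OX, 4 of the 9 were called lower in the dark and 2 higher at the earlier cycle, and 5 lower and 3 higher at the later cycle. Of all 22746 probe sets, 186 were called lower and 140 higher at the earlier cycle, and 536 lower and 446 higher at the later. In Col, 1 of the 9 was called lower and 0 higher at the earlier cycle, and 0 in either direction at the later, where limma gave 17 calls among all probe sets and 1421 at 0.05 without adjustment. Of all probe sets, 96 were called lower and 136 higher at the earlier cycle of Col. The listed genes called on 45 arrays were 5 lower and 3 higher at each cycle of CCA1OX. In Col they were 5 lower and 2 higher at the earlier cycle and 4 lower and 0 higher at the later. Of all probe sets on 45 arrays, 692 were called lower and 575 higher at the earlier cycle of CCA1OX, and 763 and 640 at the later. In Col these were 538 and 431 at the earlier cycle, and 355 and 157 at the later. The median of the 9 differences was -1.51 and -1.83 at the earlier and later cycle of CCA1OX and -1.33 and -1.02 in Col, against medians of 0.01, 0.01, 0.02 and 0.01 over all probe sets. Without HYH, AT3G52740 and AT3G44450, the other 6 genes had medians of 0.74, 1.07, 0.57 and 0.15. Of these 6, 1 was called lower and 2 higher at the earlier cycle of CCA1OX, and 2 lower and 3 higher at the later. In Col 0 of them were called at either cycle. The list mixes genes labelled light-induced and light-repressed, so its medians describe no common direction.

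The other listed genes that fell in CCA1OX, UGT78D2 and CHIL, are genes of flavonoid synthesis. UGT78D2, a flavonoid 3-O-glucosyltransferase, averaged 6.37 ± 0.47 at dark 1240, against 8.86 ± 0.68 at light 1080 (n = 5 each), a difference of -2.50 (adjusted p = 0.00421), and -1.99 at the earlier cycle (adjusted p = 0.0395). CHIL, a chalcone isomerase-like gene, was called at the later cycle only, at -1.83 (adjusted p = 0.0386), against -1.60 at the earlier (adjusted p = 0.111), where it passed on 45 arrays at -1.89 (adjusted p = 0.00325). IAA29, an auxin-response gene, moved the other way, at 8.32 ± 0.19 at dark 1240, against 4.19 ± 0.36 at light 1080 in CCA1OX, a difference of 4.13 (adjusted p = 0.000938), and 3.19 at the earlier cycle (adjusted p = 0.0214). FHL, a partner of phytochrome A in nuclear import, rose in CCA1OX at both cycles, by 1.42 at the later (adjusted p = 0.000751) and 1.09 at the earlier (adjusted p = 0.02), and HAT2, a homeodomain factor, at the later by 1.32 (adjusted p = 0.00439), and on 45 arrays also at the earlier by 1.18 (adjusted p = 0.00372). PORB, a chlorophyll synthesis enzyme, was called at neither cycle on 48 or 45 arrays. In Col none of these genes was called on 48 arrays. At the earlier and later cycle of Col, UGT78D2 was -1.58 and -1.02, CHIL -1.74 and -1.10 and IAA29 2.34 and 0.34. On 45 arrays CHIL was called at both cycles of Col (-2.03 and -1.73). UGT78D2 (-1.88), IAA29 (2.81) and FHL (0.71) were called there at the earlier cycle only. CHIL, FHL, HAT2 and PORB are named here after their values were seen.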

How the data were processed

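The deposited table holds log2 expression values for 22810 probe sets of 48 Affymetrix ATH1 arrays, made by the authors with RMA in the affy package, per the submitters' processing notes, with no version or build given in the sources used here. RMA corrects background, normalises arrays by quantiles and summarises probes, so low probe sets such as these are compressed towards the background and folds may be understated. Arrays carry no counts, so their number limits the precision. After 64 control probe sets were left out, 22746 entered a limma fit (version 3.58.1, R 4.3.3) of 1 mean for each of 9 groups taken from the labels, 39 residual degrees of freedom, two-sided moderated tests and Benjamini-Hochberg adjustment over all of them at 0.05. Adjusted p always refers to this limma test. Replicates are pooled-seedling samples of following days and of 2 time courses, so p-values measure the spread between such samples.

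Probe sets were named from GEO's platform annotation, which gave 13513 of them a single gene, and a RefSeq table. HYH, AT3G52740 and AT3G44450, the gene lists and the removal of 3 arrays were chosen with earlier results of these data known. Genes named are these 3, the listed light-signalling genes with a probe set (values for up to 4 called per comparison) and the 5 single-gene probe sets most like each. The number in the sample titles marks the time course, per the series' design text, and with the day it pairs samples. The mean correlation of residuals was 0.30 for arrays of 1 time course and day. It was 0.08 for other days of the time course and -0.16 across time courses. The alternatives were 3 block designs, 45 arrays, each campaign alone, median centring, a trended and robust prior, no dim probe sets, a fit to just the compared groups, and leaving out each array. Sequences were not used here.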

Additional observations from a re-analysis of the deposited data

Results flagged for a closer look

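Single arrays lay far from the rest of their group, by Dixon's 95% criterion, in 7 of the 27 groups of a gene tested. Chance marks about 1 in 20 of independent groups, but the 3 loci share the same arrays, and arrays recur among the 7. The count is therefore not read against chance. The array labelled CCA1OX dark 280 replicate 2 was high for all 3 loci, with HYH at 5.76, AT3G52740 at 5.44 and AT3G44450 at 4.71, against next highest values of 2.46, 3.20 and 2.74. The array labelled Col light 1080 replicate 3 was low for all 3, with HYH at 2.58, AT3G52740 at 3.52 and AT3G44450 at 2.82, against next lowest values of 5.35, 5.42 and 4.57. The array of Col light 120 replicate 1 met the criterion for AT3G52740 alone, at 3.42 against a next lowest 5.38. It was also the lowest of its group for HYH, at 4.19 against 4.85, and for AT3G44450, at 3.61 against 3.79. Its score on the other dark-responsive probe sets, -0.29, was the highest of the light arrays of the first campaign other than Col light 1080 replicate 3. Col dark 280 replicate 3, the remaining array that stood apart by that score, did not meet the criterion for any of the 3 loci.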

How the results depend on the processing

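The 12 dark minus light differences of HYH, AT3G52740 and AT3G44450 kept their direction under every alternative that gave a value, and the 3 at the later cycle of CCA1OX were called under all but the first campaign alone. Their size moved with the arrays used: at the earlier cycle of CCA1OX, HYH was -2.81, AT3G52740 -2.66 and AT3G44450 -2.47 in the second campaign alone, against -2.09, -1.79 and -1.51 on 48 arrays. The cause of the changes was not tested. RMA values near the lower end limit the precision: the 3 loci averaged 3.90, 4.31 and 3.82, below the median probe set at 4.70, so removing dim probe sets left none of them to test, and that setting gave 28 calls at the later cycle of Col, against 17.

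On 45 arrays the calls gained were dark 280 minus light 120 in Col for AT3G52740 (-1.97) and AT3G44450 (-1.48), dark 1240 minus light 1080 in Col for HYH (-2.30), AT3G52740 (-1.67) and AT3G44450 (-1.68), and pif4 pil5 minus CCA1OX for AT3G52740 (1.11) and AT3G44450 (1.47). Uncalled differences that changed sign there were CCA1OX minus Col at light 1080 (HYH -0.36, AT3G52740 -0.12, AT3G44450 -0.19), dark 1240 minus dark 280 in CCA1OX (0.15, 0.17, 0.11) and light 1080 minus light 120 in Col (0.30, 0.41, 0.24). The others were AT3G44450 for dark 1240 minus dark 280 (0.046) and later minus earlier fall (-0.20) in Col, HYH for the early fall in CCA1OX minus that in Col (-0.0071), and HYH for pif4 pil5 minus Col (0.30). Probe sets called numbered 1267 at the earlier cycle of CCA1OX, 969 at the earlier and 512 at the later cycle of Col, against 326, 232 and 17 on 48 arrays.

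The second campaign alone gained dark 280 minus light 120 in Col for AT3G52740 (-2.34) and AT3G44450 (-1.98), and pif4 pil5 minus CCA1OX for AT3G52740 (1.05) and AT3G44450 (1.48). Signs changed for CCA1OX minus Col at light 1080 (HYH -0.43, AT3G44450 -0.32), dark 1240 minus dark 280 in CCA1OX (HYH 0.21, AT3G52740 0.19, AT3G44450 0.018), pif4 pil5 minus Col (HYH 0.18) and, for AT3G44450 in CCA1OX, later minus earlier fall (0.52) and light 1080 minus light 120 (-0.50). It called 816 probe sets at the earlier and 594 at the later cycle of CCA1OX and 71 at the later cycle of Col. The first campaign alone, which holds the 3 arrays that stood apart, lost every call: CCA1OX earlier cycle (HYH -1.41, AT3G52740 -1.08, AT3G44450 -0.76), CCA1OX later cycle (-3.03, -2.16, -1.93) and HYH in Col (-1.77), with 1 and 0 probe sets called at the 2 cycles of CCA1OX and 0 and 1 in Col. Signs changed there for CCA1OX minus Col at dark 280 (HYH 0.054, AT3G44450 0.12), HYH at dark 1240 minus dark 280 in Col (-0.066), light 1080 minus light 120 in Col (AT3G52740 0.076, AT3G44450 0.019), and for AT3G44450 at later minus earlier fall in Col (-0.11), early fall in CCA1OX minus that in Col (0.17) and day 6 minus day 4 (0.044).

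With the time course as a replicate block, AT3G44450 in pif4 pil5 minus CCA1OX passed at 1.13 (adjusted p = 0.0405), as with a block for time course and day (1.13, 0.0327) and with median centring (1.14, 0.0436). The time course block changed no other call. The block for time course and day turned later minus earlier fall in Col for AT3G44450 to -0.043, and called 551 and 1545 probe sets at the earlier and later cycle of CCA1OX and 439 and 26 in Col. The array batch block gave 501, 1476, 432 and 30, and turned AT3G44450 at day 6 minus day 4 (0.34), AT3G52740 at light 1080 minus light 120 in Col (0.059) and HYH in pif4 pil5 minus Col (0.21). Fitting only the groups compared lost the earlier cycle for HYH in CCA1OX (-2.09, adjusted p = 0.148), AT3G52740 (-1.79) and AT3G44450 (-1.51) and for HYH in Col (-2.33), with 0 and 1886 probe sets called in CCA1OX and 35 and 5 in Col.

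Leaving out 1 array at a time gave 12 to 905 and 585 to 880 calls at the earlier and later cycle of CCA1OX and 102 to 677 and 9 to 235 in Col, the highest being 905 without CCA1OX dark 280 replicate 2, 677 without Col dark 280 replicate 3 and, at the later Col cycle, 235 without replicate 3 of light 1080. For dark 280 minus light 120, HYH was -2.68 to -1.90, AT3G52740 -2.20 to -1.55 and AT3G44450 -1.92 to -1.31 in CCA1OX, and -2.67 to -2.12, -2.06 to -1.37 and -1.59 to -1.08 in Col. For dark 1240 minus light 1080 in Col, HYH was -2.30 to -1.36 and AT3G44450 -1.68 to -1.07. For pif4 pil5 minus CCA1OX, AT3G44450 was 1.01 to 1.47. The uncalled differences that changed sign lay between these bounds. For light 1080 minus light 120 in Col, HYH was -0.65 to 0.30, AT3G52740 -0.46 to 0.41 and AT3G44450 -0.42 to 0.24. In CCA1OX, AT3G52740 was -0.043 to 0.60 and AT3G44450 -0.21 to 0.40. For dark 1240 minus dark 280 in CCA1OX, HYH was -0.63 to 0.15, AT3G52740 -0.36 to 0.17 and AT3G44450 -0.34 to 0.11, and in Col AT3G44450 was -0.23 to 0.046. For the later fall minus the earlier in Col, AT3G52740 was -0.061 to 0.81 and AT3G44450 -0.35 to 0.32. For the early fall in CCA1OX minus that in Col, HYH was -0.35 to 0.58, AT3G52740 -0.60 to 0.27 and AT3G44450 -0.59 to 0.071. For CCA1OX minus Col at light 120, AT3G52740 was -0.52 to 0.33 and AT3G44450 -0.39 to 0.27. At dark 280, HYH was -0.91 to 0.016 and AT3G52740 -0.67 to 0.11. At light 1080, HYH was -0.36 to 0.58, AT3G52740 -0.12 to 0.47 and AT3G44450 -0.19 to 0.42. For pif4 pil5 minus Col, HYH was -0.19 to 0.30. For day 6 minus day 4, HYH was -0.34 to 0.032, AT3G52740 -0.0030 to 0.30 and AT3G44450 -0.21 to 0.020.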
